A study of Mus musculus with 4 samples.

Results

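The 35 genes described here act in the DNA damage response and in DNA repair. They were taken by name from a table of RNA-seq counts for 24454 genes, as 4 checkpoint kinases, 14 genes of homologous recombination, 7 genes of the Fanconi anemia pathway, 3 genes of end joining, 2 genes of mismatch repair and 5 genes of base excision and single-strand break repair. All 35 were present in the table, and all 35 were among the 14266 genes with enough counts to be tested.

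The RNA came from mouse hearts at postnatal day 7 (P7), with 2 Ctrl libraries (WH7 and WH8) and 2 miR-128OE libraries (WH9 and WH10). In the study's methods, miR-128OE mice are α-MHC-tTA; miR-128TetRE animals on a C57BL/6 background. In these mice the tetracycline transactivator is driven in cardiomyocytes (CMs) by the α-myosin heavy chain promoter and switches on a *miR-128* transgene when doxycycline is withdrawn. Ctrl mice carry the miR-128TetRE allele without the transactivator. Both groups thus share the *miR-128* transgene, but only miR-128OE mice carry the transactivator. Its presence and *miR-128* overexpression cannot be told apart here. The doxycycline schedule of these P7 hearts is not given in the sources used here. The transgene acts in CMs, whereas the libraries hold RNA of all cells of the heart. Nothing in the labels says whether a library is 1 animal or a pool, or whether the 2 libraries of a group are from separate litters, so p-values measure the spread between these libraries, which may be technical.

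Library totals ranged from 8096870 counts in WH8 to 14359838 in WH10. The mature miRNA is not measured by these libraries. No library held a count of its precursor gene *Mir128-1*. The other precursor gene, *Mir128-2*, was counted 0 times in both Ctrl hearts, 2 times in WH9 and 10 times in WH10. Counts of *Xist*, the RNA that silences one X chromosome in females, were 14543 and 11339 in Ctrl and 94 and 132 in miR-128OE hearts, and those of the Y-linked *Ddx3y* were 13 and 7 against 1442 and 1768. Sex and condition therefore cannot be told apart in any comparison here. Of the 35 repair genes, 0 lie on the X or Y chromosome. CM markers were abundant in every library, with none of 15 at 0. Their summed level was 678659 and 742758 normalized counts in Ctrl and 924983 and 904661 in miR-128OE hearts. Normalized counts are counts scaled by trimmed-mean (TMM) factors to a common library size.

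Cells meet DNA damage with a checkpoint that halts the cycle and with repair pathways matched to the lesion. The kinases ATM and ATR sense double-strand breaks and stalled replication forks and activate CHK2 and CHK1. Homologous recombination copies a sister chromatid and so is largely confined to dividing cells. The Fanconi pathway unhooks cross-linked strands, and end joining seals breaks without a template. Base excision and single-strand break repair mend oxidized or missing bases in cycling and resting cells alike. In the heart, CMs leave the cell cycle within days of birth, around the age that these libraries sample.

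Of the 35 repair genes, 11 were lower in miR-128OE hearts and 0 were higher at an adjusted p under 0.05. Calls came from the quasi-likelihood test of edgeR, and p-values were adjusted by Benjamini-Hochberg over all genes tested. The other 24 did not pass. Of all genes tested, 15.0% were lower and 16.5% were higher by the same rule. Fewer genes over the whole table were called without WH9 or without WH10, when the spread came from the Ctrl pair alone. That pair differed more than the miR-128OE pair (chi-square per degree of freedom 12.2 against 5.75). At an unadjusted p under 0.05, 18 repair genes were lower and 0 higher, and DESeq2 called 6 lower and 0 higher. DESeq2 called 9.60% of all genes it tested lower and 12.4% higher. At an unadjusted p under 0.05, 21.1% of all genes were lower and 21.8% higher. The median log2 fold change of the 35 genes was −0.42, against −0.01 for all genes tested. For the 35 genes it was −0.39 without WH9 and −0.38 without WH10. Both miR-128OE libraries lay below both Ctrl libraries for 26 of the 35 genes and above both for 3. Over all genes tested, 34.4% lay below and 33.7% above in this way. With whole hearts, fewer cells that express a gene and less of its RNA per cell cannot be told apart.

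The calls were uneven across pathways. Of the checkpoint kinases 3 of 4 were lower, as were 4 of 14 genes of homologous recombination, 3 of 7 of the Fanconi pathway and 1 of 2 of mismatch repair. None of 3 end joining genes and none of 5 base excision genes passed with edgeR, DESeq2 or the likelihood ratio test, and at an unadjusted p under 0.05 the counts were 0 and 1 lower. The median log2 fold change was −0.70 for the checkpoint kinases, −0.47 for homologous recombination, −0.44 for the Fanconi genes, −0.82 for mismatch repair, −0.11 for end joining and −0.21 for base excision. The differences between pathways were not tested.

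**Figure D1:**
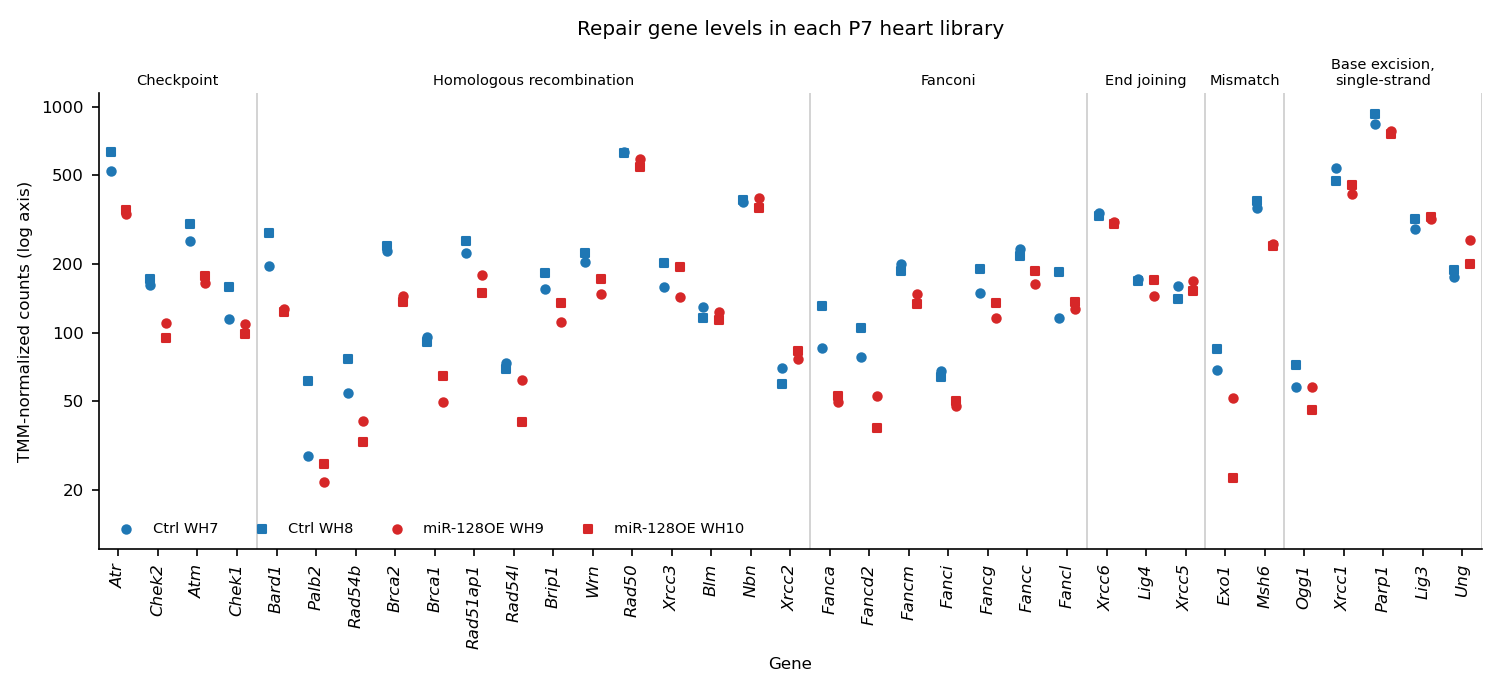
TMM-normalized counts (log axis) of the 35 repair genes in each library, grouped by pathway and ordered by fold change within it, with Ctrl in blue (circles WH7, squares WH8) and miR-128OE in red (circles WH9, squares WH10). Red points lie below both blue points for 26 genes, among them all 4 checkpoint kinases and 6 of 7 Fanconi genes.

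Among the checkpoint kinases, *Atr*, which encodes the kinase recruited to single-stranded DNA at stalled forks (chr9:95857597-95953217, RefSeq GRCm38.p6), had 518 normalized counts in WH7 and 628 in WH8, the Ctrl hearts, against 335 in WH9 and 347 in WH10, the miR-128OE hearts. The groups were apart, with both miR-128OE hearts near each other. Its log2 fold change was −0.74 ± 0.12 (SE, n = 2 per group; adjusted p = 0.00175), which is 40.1% lower.

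*Atm*, which encodes the kinase activated by double-strand breaks, had 253 and 301 normalized counts in Ctrl and 165 and 178 in miR-128OE hearts. Every miR-128OE value again lay below every Ctrl value. The log2 fold change was −0.68 ± 0.14 (SE; adjusted p = 0.00658). *Chek2*, whose product is the kinase downstream of ATM, had 162 and 172 against 110 and 94.2 normalized counts, a log2 fold change of −0.71 ± 0.17 (SE; adjusted p = 0.0114). *Chek1*, whose product is the kinase downstream of ATR, had 115 and 160 in Ctrl and 109 and 98.4 in miR-128OE hearts. The gap between the groups was narrow because the Ctrl heart WH7 lay close to WH9. *Chek1* did not pass, with a log2 fold change of −0.39 (95% interval −0.84 to 0.07; adjusted p = 0.174).

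Homologous recombination begins with the trimming of broken ends by the MRE11, RAD50 and NBN complex, and neither *Rad50* nor *Nbn* passed. The gene of the third subunit, *Mre11a*, is not among the 35 and was named after its values were seen. It was lower, with a log2 fold change of −0.60 (adjusted p = 0.0122). *Rad50*, the ATPase of the complex, had 629 and 626 normalized counts in Ctrl and 583 and 541 in miR-128OE hearts, with a log2 fold change of −0.16 (95% interval −0.37 to 0.04; adjusted p = 0.209). *Nbn*, which recruits ATM, had a log2 fold change of −0.03 (95% interval −0.28 to 0.21), and its groups overlapped.

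The BRCA genes stood lower. *Brca2* (chr5:150522297-150570147), whose product acts at the resected ends of breaks, had 230 and 242 normalized counts in Ctrl and 145 and 136 in miR-128OE hearts. Replicates differed far less than the groups. The log2 fold change was −0.75 ± 0.14 (SE; adjusted p = 0.00368), or 40.5% lower. *Bard1* (chr1:71027535-71103141), the obligate partner of BRCA1 in a ubiquitin ligase, had 197 and 276 in Ctrl and 128 and 123 in miR-128OE hearts. Here the Ctrl hearts differed from each other, and the lower of them still lay above both miR-128OE hearts. Its log2 fold change was −0.90 ± 0.18 (SE; adjusted p = 0.00597).

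*Brca1* itself had 96.0 and 90.5 normalized counts in Ctrl and 49.5 and 63.9 in miR-128OE hearts, with a log2 fold change of −0.71 ± 0.23 (SE; adjusted p = 0.0402). Counts this low make the estimate less precise than that of *Brca2*, and the call was lost under 5 of 12 alternatives. *Rad51ap1*, whose product stimulates strand invasion, had 224 and 253 against 180 and 149, a log2 fold change of −0.53 ± 0.15 (SE; adjusted p = 0.0253). It was lost under 4 of 12 alternatives.

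Of the 10 genes of homologous recombination that did not pass, 9 had log2 fold changes below 0. The helicase gene *Wrn* (−0.42, adjusted p = 0.0590), the translocase gene *Rad54b* (−0.81, adjusted p = 0.0598) and the BRCA1-associated helicase gene *Brip1* (−0.44, adjusted p = 0.0808) lay nearest the threshold, with intervals that did not reach 0. Exons of *Rad54b* share 35.8% of their bases with *Fsbp* on the same strand, so its counts may include reads of that gene. *Palb2*, which bridges BRCA1 and BRCA2, had the widest interval of the 35 genes. It had 28.3 and 60.8 normalized counts in Ctrl and 21.8 and 26.1 in miR-128OE hearts, and its interval ran from −1.74 to 0.08. *Rad54l*, which encodes a chromatin translocase, was at −0.50 (95% interval −1.11 to 0.11).

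The remaining 3 genes of the pathway were near or above the Ctrl level. The dissolution helicase gene *Blm* and the recombination gene *Xrcc3* had log2 fold changes of −0.07 each, and their groups overlapped. *Xrcc2*, another recombination gene, had 69.5 and 59.4 normalized counts in Ctrl and 76.2 and 82.4 in miR-128OE hearts. It was one of the 3 repair genes with both miR-128OE hearts above both Ctrl hearts, and its log2 fold change of 0.29 (95% interval −0.21 to 0.79) did not pass.

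In the Fanconi pathway a core complex ubiquitinates FANCD2 and FANCI, which then recruit nucleases to the cross-link. *Fancd2* had 77.7 and 105 normalized counts in Ctrl and 52.5 and 37.8 in miR-128OE hearts. The 4 values were spread within each group as well as between the groups, without overlap. Its log2 fold change was −1.0 ± 0.27 (SE; adjusted p = 0.0199), or 50.1% lower. *Fanci*, the partner of *Fancd2*, had a log2 fold change of −0.44 (95% interval −0.98 to 0.10) and did not pass.

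Of the core complex, *Fanca* had the lowest fold change of the 35 genes. It had 85.0 and 131 normalized counts in Ctrl and 49.5 and 52.1 in miR-128OE hearts. Although the Ctrl hearts differed by more than the miR-128OE hearts, the groups did not overlap. The log2 fold change was −1.06 ± 0.26 (SE; adjusted p = 0.0137). *Fancm*, whose product is the translocase that anchors the complex to DNA, had 200 and 187 against 148 and 134 normalized counts, with a log2 fold change of −0.47 ± 0.15 (SE; adjusted p = 0.0388). The core genes *Fancc* and *Fancg* did not pass, at −0.36 (adjusted p = 0.0796) and −0.42 (adjusted p = 0.107). The ubiquitin ligase gene *Fancl*, at −0.16, had overlapping groups.

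**Figure D2:**
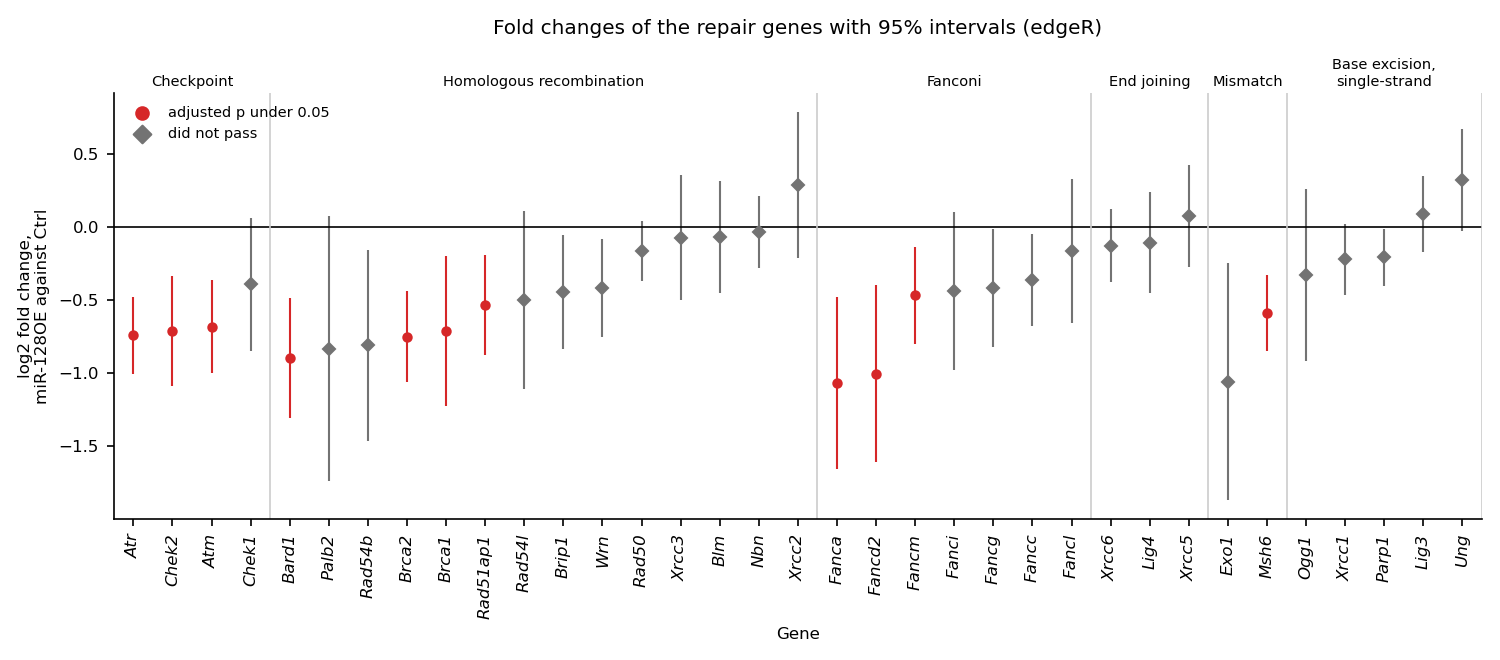
Log2 fold change of each repair gene in miR-128OE against Ctrl hearts with its 95% interval from the edgeR fit, by pathway, with red circles for genes past the adjusted p threshold of 0.05 and grey diamonds for the rest. The 11 red genes lie between −1.06 and −0.47, and the points for end joining and base excision lie between −0.32 and 0.32.

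Mismatch repair was represented by *Msh6*, which recognizes single mismatched bases, and by the exonuclease gene *Exo1*. *Msh6* had 354 and 380 normalized counts in Ctrl and 246 and 242 in miR-128OE hearts. The replicates were close in both groups. The log2 fold change was −0.59 ± 0.12 (SE; adjusted p = 0.00485), or 33.4% lower. *Exo1* had 68.6 and 84.8 in Ctrl and 51.5 and 22.7 in miR-128OE hearts. Its miR-128OE hearts differed from each other by more than its Ctrl hearts did. At a log2 fold change of −1.06 ± 0.36 (SE) it lay just beyond the threshold (adjusted p = 0.0502), and it passed under 7 of 12 alternatives.

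None of the 3 end joining genes passed. *Xrcc6* and *Xrcc5* encode Ku70 and Ku80, the ring that binds a broken end. *Xrcc6* had 337 and 328 normalized counts in Ctrl and 308 and 303 in miR-128OE hearts, with a log2 fold change of −0.13 (95% interval −0.37 to 0.12; adjusted p = 0.418). *Xrcc5* had 160 and 141 against 168 and 152, and the groups overlapped. Its log2 fold change was 0.08 (95% interval −0.27 to 0.43). *Lig4*, the ligase gene that completes the pathway, had 172 and 168 against 145 and 171, with a log2 fold change of −0.11 (95% interval −0.45 to 0.24).

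None of the base excision and single-strand break repair genes passed at an adjusted p under 0.05. *Parp1*, the gene with the highest counts of the 35, encodes the polymerase that marks nicks with ADP-ribose. It had 841 and 927 normalized counts in Ctrl and 776 and 754 in miR-128OE hearts. Its groups did not overlap, and its log2 fold change was −0.21 (95% interval −0.40 to −0.01; adjusted p = 0.101). It passed under 2 of 12 alternatives, with total counts (adjusted p = 0.0242) and without WH7 (adjusted p = 0.0293). *Xrcc1*, the scaffold of the pathway, had 532 and 471 against 412 and 452, a log2 fold change of −0.22 (95% interval −0.46 to 0.02). Its partner ligase gene *Lig3* was at 0.09 (95% interval −0.17 to 0.35), with both miR-128OE hearts at or above the higher Ctrl heart. Exons of *Lig3* overlap *Rffl* on the opposite strand over 25.1% of their bases, the largest such share of the 35 genes. Among the lower genes the largest opposite-strand shares were 10.5% in *Fanca*, 7.07% in *Fancm* and 5.03% in *Atr*. Whether strand was used in counting is not given.

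The 2 glycosylase genes differed in sign. *Ung*, which removes uracil, had 176 and 189 normalized counts in Ctrl and 256 and 202 in miR-128OE hearts. It had the highest fold change of the 35 genes, at a log2 value of 0.32 (95% interval −0.03 to 0.68; adjusted p = 0.142). *Ogg1*, which removes oxidized guanine, had 57.6 and 72.1 against 57.4 and 45.4, a log2 fold change of −0.32 (95% interval −0.91 to 0.26). Neither passed.

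Levels were also compared per length, as reads scaled to exon length and library size (RPKM), since only these allow one gene to be set against another. The median RPKM of the 35 genes was 2.30 and 2.74 in Ctrl and 1.92 and 1.84 in miR-128OE hearts. Over all annotated exons *Parp1* and *Nbn* had the highest levels, at 13.5 and 14.9 RPKM and at 12.7 and 12.9 RPKM in Ctrl hearts. *Palb2* (0.327 and 0.702 RPKM) and *Exo1* (0.691 and 0.854 RPKM) were among the lowest in Ctrl hearts, with ranges that overlapped. *Rad54l* (0.805 and 0.762 RPKM) could not be set apart from *Exo1*. In miR-128OE hearts *Parp1* (12.4 and 12.1 RPKM) and *Nbn* (13.2 and 11.9 RPKM) overlapped too. Order depended on the gene model. Over the longest transcript *Xrcc1*, at 17.9 and 15.8 RPKM in Ctrl hearts, lay above *Nbn*. *Atr* moved too, with 1.86 and 2.25 RPKM over all annotated exons and 5.42 and 6.57 RPKM over the longest transcript in Ctrl hearts.

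Ratios between partner genes within a library describe unequal change. With 2 libraries against 2, an exact permutation test cannot give a p below 0.333, so these ratios carry no test. The RPKM ratio of *Fancd2* to *Fanci* was 0.836 and 1.20 in Ctrl and 0.803 and 0.555 in miR-128OE hearts, apart by less than the Ctrl hearts were from each other. That of *Chek1* to *Chek2* was 0.461 and 0.600 against 0.642 and 0.676. Ratios of *Xrcc6* to *Xrcc5* were 1.20 and 1.32 against 1.04 and 1.14. *Brca1* over *Bard1* gave overlapping groups, at 0.324 and 0.218 against 0.257 and 0.345. The ratio of *Atr* to *Atm* moved little, from 0.894 and 0.912 to 0.886 and 0.852. For *Xrcc1* over *Lig3* it was 2.32 and 1.86 against 1.62 and 1.74. In every pair without overlap, the gap between the groups was smaller than the difference between the Ctrl hearts.

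The other genes of the same pathways were taken as textbook lists, but with earlier results of these data known. They are therefore no independent check. Lower genes were found among them in all 6 pathways, end joining and base excision included. Of all genes tested, 15.0% were lower and 16.5% higher by the same rule, so some lower genes are expected in any list. Of 93 further tested genes of the 6 pathways, 30 were lower (32.3%) and 2 higher (2.15%). With nucleotide excision repair and translesion synthesis added, 38 of 121 were lower and 4 higher, and the count of lower genes was 13 without WH9, 19 without WH10 and 25 without WH8. In the checkpoint list 6 of 16 were lower and 0 higher (unadjusted p under 0.05, 7 lower and 2 higher; DESeq2, 5 and 0). These included *Mdc1*, the adaptor that spreads the signal along chromatin (598 and 685 against 410 and 347 normalized counts; log2 fold change −0.76, adjusted p = 0.00151), and the ubiquitin ligase gene *Rnf168* (−0.53, adjusted p = 0.00227). For homologous recombination 8 of 25 were lower and 2 higher (unadjusted, 12 and 2; DESeq2, 3 and 0), led by *Rmi2* of the BLM complex (277 and 263 against 111 and 136 normalized counts; log2 fold change −1.12, adjusted p = 0.00076) and the helicase gene *Rtel1* (−0.48, adjusted p = 0.00997). Of the Fanconi list 3 of 12 were lower and 0 higher (unadjusted, 3 and 0; DESeq2, 1 and 0). Its leading genes were *Usp1*, which removes ubiquitin from FANCD2 (−0.56, adjusted p = 0.00216), and *Cenps*, which encodes a partner of FANCM (−0.65, adjusted p = 0.0355).

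For end joining, 4 of 10 further genes were lower and 0 higher (unadjusted, 4 and 0; DESeq2, 3 and 0), whereas none of the 3 genes described above passed. The median log2 fold change of these 10 was −0.41. *Rif1*, which protects ends from trimming, had 1198 and 1288 normalized counts in Ctrl and 854 and 797 in miR-128OE hearts (log2 fold change −0.59, adjusted p = 0.00112). *Aplf*, a Ku-binding factor gene, had 189 and 171 against 91.1 and 86.6 (−1.03, adjusted p = 0.00181). In mismatch repair 4 of 12 were lower and 0 higher (unadjusted, 4 and 0; DESeq2, 2 and 0), with the clamp loader genes *Rfc2* (−0.62, adjusted p = 0.0012) and *Rfc1* (−0.60, adjusted p = 0.00152) in the lead. Both also serve in DNA replication.

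Of 18 further base excision genes tested, 5 were lower and 0 higher (unadjusted, 7 and 1; DESeq2, 2 and 0). *Lig1*, the ligase gene that joins Okazaki fragments, had 626 and 612 normalized counts in Ctrl and 365 and 394 in miR-128OE hearts (log2 fold change −0.71, adjusted p = 0.00085). *Neil3*, a glycosylase gene, had 273 and 393 against 155 and 169 (−1.02, adjusted p = 0.00273). Nucleotide excision repair, a pathway with none of the 35 genes, had 4 of 20 lower and 2 higher (unadjusted, 6 and 3; DESeq2, 1 and 1) and a median log2 fold change of −0.10. These shares, 20% and 10%, lay near the 15.0% and 16.5% of all genes tested. Its damage sensor gene *Ddb2* was lower (−1.19, adjusted p = 0.0083) and *Rad23b*, whose product holds the XPC sensor, was higher (0.45, adjusted p = 0.00255). In translesion synthesis 4 of 8 were lower and 0 higher (unadjusted, 4 and 0; DESeq2, 2 and 0), with the fork-remodelling factor gene *Hltf* at −0.64 (adjusted p = 0.00301) and the polymerase iota gene *Poli* at −0.92 (adjusted p = 0.0146).

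**Figure D3:**
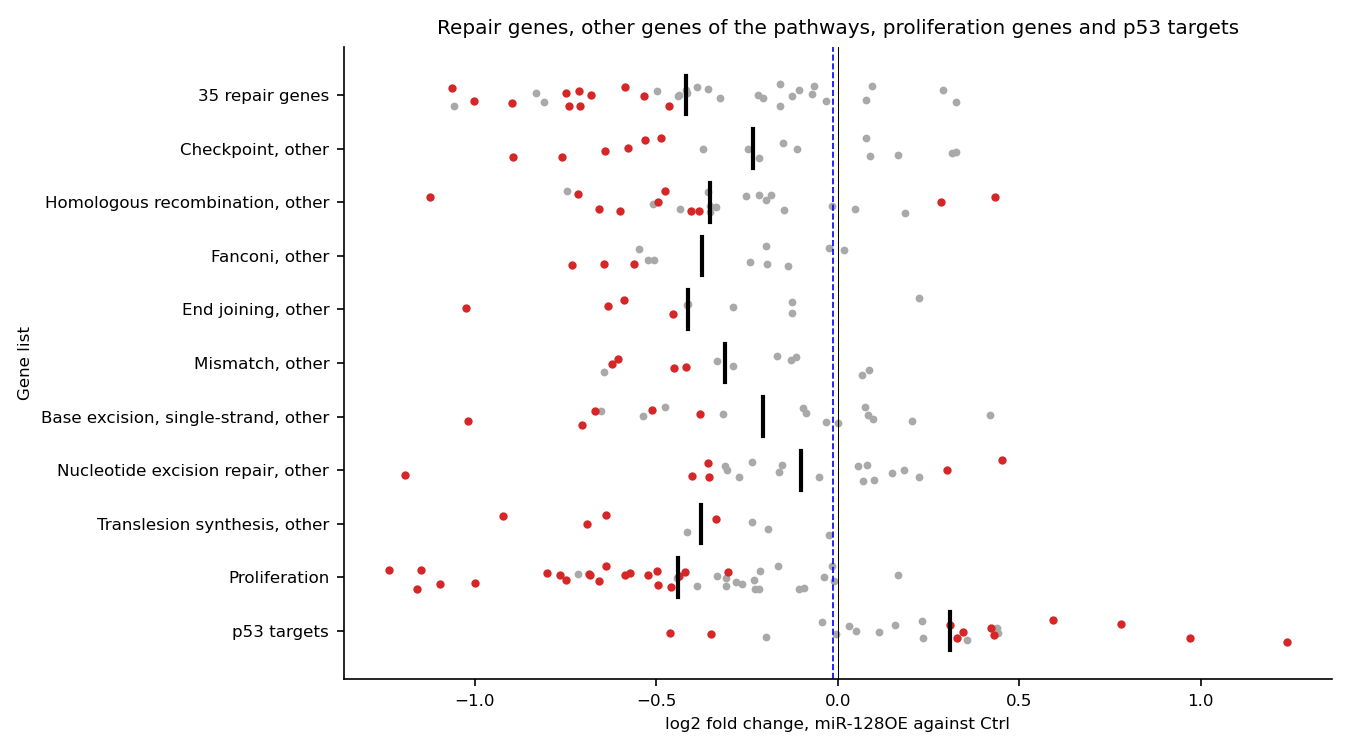
Log2 fold change (miR-128OE against Ctrl) of each tested gene in the 35 repair genes, in the other genes of 8 repair pathways, and in lists of proliferation genes and p53 targets, with red for an adjusted p under 0.05, grey for the rest, black bars for medians and a dashed blue line for the median of all genes. Medians lie between −0.41 and −0.10 for the other repair genes, at −0.44 for proliferation genes and at 0.31 for p53 targets.

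Genes of the cell cycle moved with the repair genes. In a list of 40 proliferation genes, which make no part of the 35, 21 were lower and 0 higher, and the median was −0.44 on the log2 scale (unadjusted, 24 lower and 0 higher; DESeq2, 17 and 0). Their summed level was 18135 and 22629 normalized counts in Ctrl and 13447 and 13423 in miR-128OE hearts, with none of 40 at 0. The replicative helicase gene *Mcm6* had 709 and 669 normalized counts in Ctrl and 351 and 339 in miR-128OE hearts (log2 fold change −1.0, adjusted p = 0.00015). *Mki67*, the proliferation marker gene, had 2295 and 3177 against 1243 and 1222 (−1.15, adjusted p = 0.000388). The count of lower proliferation genes was 8 without WH9 and 10 without WH10. Their part in the lower repair genes was not tested.

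Target genes of p53, the transcription factor that ATM and CHK2 activate, went the other way only in part. Of 23 tested, 9 were higher, 2 were lower and 12 did not pass, and their median was 0.31 on the log2 scale. *Btg2*, an antiproliferative gene, had 537 and 485 normalized counts in Ctrl and 1235 and 1183 in miR-128OE hearts (log2 fold change 1.24, adjusted p = 3.67e-05). *Ccng1*, the cyclin G1 gene, had 1858 and 1697 against 3649 and 3321 (0.97, adjusted p = 0.000112). These are levels of mRNA, and no kinase activity was measured. When libraries were scaled by their total counts, 5 of the 23 were higher, as were 5 without WH9 and 5 without WH10. The count of lower targets was 0 without either of these and with DESeq2, and 1 without WH7.

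Calls among markers of cell types differed between lists. Of all genes tested, 15.0% were lower and 16.5% were higher by the same rule. Of 15 CM markers 8 were higher and 2 lower. Of 10 smooth muscle and pericyte markers 4 were higher and 1 lower, with summed levels of 27310 and 25975 normalized counts in Ctrl and 33282 and 37237 in miR-128OE hearts. *Acta2*, named after its values were seen, held 7382 and 6815 of these counts in Ctrl and 12481 and 14753 in miR-128OE hearts, and so most of the difference. Of 10 endothelial markers 3 were lower and 2 higher, and their summed levels, from 26288 to 27641, overlapped between the groups. Fibroblast, macrophage and erythroid lists had 1 gene higher each and 0 lower (of 10, 10 and 4 tested). Of 8 epicardial markers 0 passed (1 higher and 1 lower unadjusted; DESeq2, 0 and 0). Summed fibroblast levels ran from 83863 to 128753, macrophage levels from 1264 to 1611 and epicardial levels from 1967 to 2786, with overlapping groups in each. Erythroid levels were 540 and 396 in Ctrl and 935 and 854 in miR-128OE hearts, with the 4 globin genes at 0 in every library. The part of these markers in the repair gene differences was not tested.

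The seed of *miR-128* is shown because it is the miRNA that was overexpressed. The mature sequence, from RefSeq (GRCm38.p6), has its seed, bases 2 to 8, in capitals. Under it stand windows of the longest 3′ UTR (GENCODE M21) of the 2 lower genes with a match, and of *Chek1* and *Xrcc2*, which did not pass and hold the most matches and the longest kind of match. Capitals there mark the 7 bases complementary to the seed, at chr1:71029815-71029821 (minus strand, exon 11) in *Bard1*, chr6:113596590-113596596 (plus strand, exon 44) in *Fancd2*, chr9:36709239-36709245 (minus strand, exon 13) in *Chek1* and chr5:25691177-25691183 (minus strand, exon 3) in *Xrcc2*.
miR-128-3p: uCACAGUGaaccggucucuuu
*Bard1*: cggtatgctctCACTGTGtacatttgctg
*Fancd2*: catatatgtgcCACTGTGcatatgtgtag
*Chek1*: acttgtagtccCACTGTGgtaaaagtcag
*Xrcc2*: tcatgaccaagCACTGTGagcaaaagact

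A match was counted as CACTGTG or ACTGTGA on the mRNA strand, and overlapping matches were counted once. Of the 35 repair genes 10 held at least 1 match (28.6%), against 31.0% of the 13463 tested genes with an annotated 3′ UTR. By call, 2 of 11 lower genes (*Bard1* and *Fancd2*) and 8 of 24 others (*Brip1*, *Chek1*, *Exo1*, *Fancc*, *Lig4*, *Wrn*, *Xrcc2* and *Xrcc6*) held one. *Chek1* held 3 matches, and *Brip1* and *Xrcc2* held 2 each. The match shown for *Xrcc2* is followed by an A, which makes it the longest kind counted. *Xrcc2* was above both Ctrl hearts in both miR-128OE hearts. *Atr*, *Atm*, *Brca2* and *Msh6* held none in these windows of annotation.

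Promoters were read from RefSeq windows (GRCm38.p6) of 250 bases before to 50 after a start site, which were matched for 28 of the 35 genes. An E2F element, searched as TTTCCCGC, TTTCGCGC, TTTGCCGC or TTTGGCGC on both strands, was held by 6 of the 28 genes (21.4%), against 4.53% of 11250 tested genes with a window and 2.60% of all 27025 genes with one. By call, 4 of 10 lower genes with a window (*Bard1*, *Brca2*, *Chek2* and *Msh6*) and 2 of 18 others (*Fancg* and *Xrcc6*) held it. E2F factors drive genes of DNA replication and cycle entry. All 6 carried the same letters, shown here in capitals on the strand where they read so, at chr1:71103163-71103192 (minus strand), chr5:150522442-150522471 (minus), chr5:110839820-110839849 (minus), chr17:87975054-87975083 (plus), chr4:43010335-43010364 (minus) and chr15:82016312-82016341 (minus), in the order listed.
*Bard1*: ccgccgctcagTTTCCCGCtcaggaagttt
*Brca2*: gtgtgtgtctgTTTCCCGCtgtggcctaaa
*Chek2*: cgacgtcttggTTTCCCGCggctaatcccg
*Msh6*: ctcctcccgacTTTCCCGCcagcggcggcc
*Fancg*: tttcttttcagTTTCCCGCggaaccgtctc
*Xrcc6*: gcccactcgcaTTTCCCGCttccaccccct

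The 4 lower genes of this group had log2 fold changes of −0.90, −0.75, −0.71 and −0.59, and the other 2, *Fancg* and *Xrcc6*, had −0.42 and −0.13. Counted along the strand of the gene, the first base of the element lay 209, 168 and 152 bases before the start site in *Bard1*, *Brca2* and *Chek2*. In *Msh6* it lay 15 bases after the start site. *Brca2* and *Chek2* are printed on the opposite strand, so that base is the last of their capitals. That start site is the transcript start of the RefSeq window, which differs from the outermost gene boundary for *Bard1*, *Brca2*, *Chek2*, *Fancg* and *Xrcc6*. A CCAAT box was held by 17 of the 28 genes (60.7%), against 42.5% of tested genes. The element CHR (TTTGAA) was held by 1 of 28 (3.57%), against 14.2%. No test was made of these shares, and a match is not a bound site.

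Lower repair genes had longer transcripts than the other repair genes, as had lower genes of the whole table. The median longest transcript was 5659 nt for the 11 lower genes, 3523 nt for the 24 others, 4209 nt for all lower genes and 3442 nt for all genes tested. Median GC content was 45.8%, 47.1%, 49.0% and 49.8% in the same order. With an offset for GC content and length in the fit, 9 of the 11 genes remained lower, and 2 did not pass. *Brca1* was then at −0.62 on the log2 scale (adjusted p = 0.0654) and *Fancm* at −0.32 (adjusted p = 0.135).

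The 11 calls were then followed through 12 other ways of processing the counts. *Atr*, *Bard1* and *Brca2* were lower in all 12, with adjusted p-values of at most 0.0283, 0.0429 and 0.0425. *Atm* passed in 11, *Chek2*, *Fanca* and *Msh6* in 10, *Fancd2* and *Rad51ap1* in 8, and *Brca1* and *Fancm* in 7. The DESeq2 test kept *Atm*, *Atr*, *Bard1*, *Brca2*, *Fanca* and *Msh6*. Each library mattered to the count of lower repair genes. It was 17 without the Ctrl heart WH7, of which 9 were among the 11, with *Brca1* and *Fancm* lost. Without the Ctrl heart WH8 it was 9, with *Fancd2* and *Rad51ap1* lost. Without the miR-128OE heart WH9 it was 5, namely *Atr*, *Chek2*, *Brca2*, *Bard1* and *Exo1*. Without WH10 it was 4, namely *Atm*, *Atr*, *Brca2* and *Bard1*. With 1 library left in a group, that library is assumed to vary like the other group. None of the 35 genes was higher in any of the 12.

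**Figure D4:**
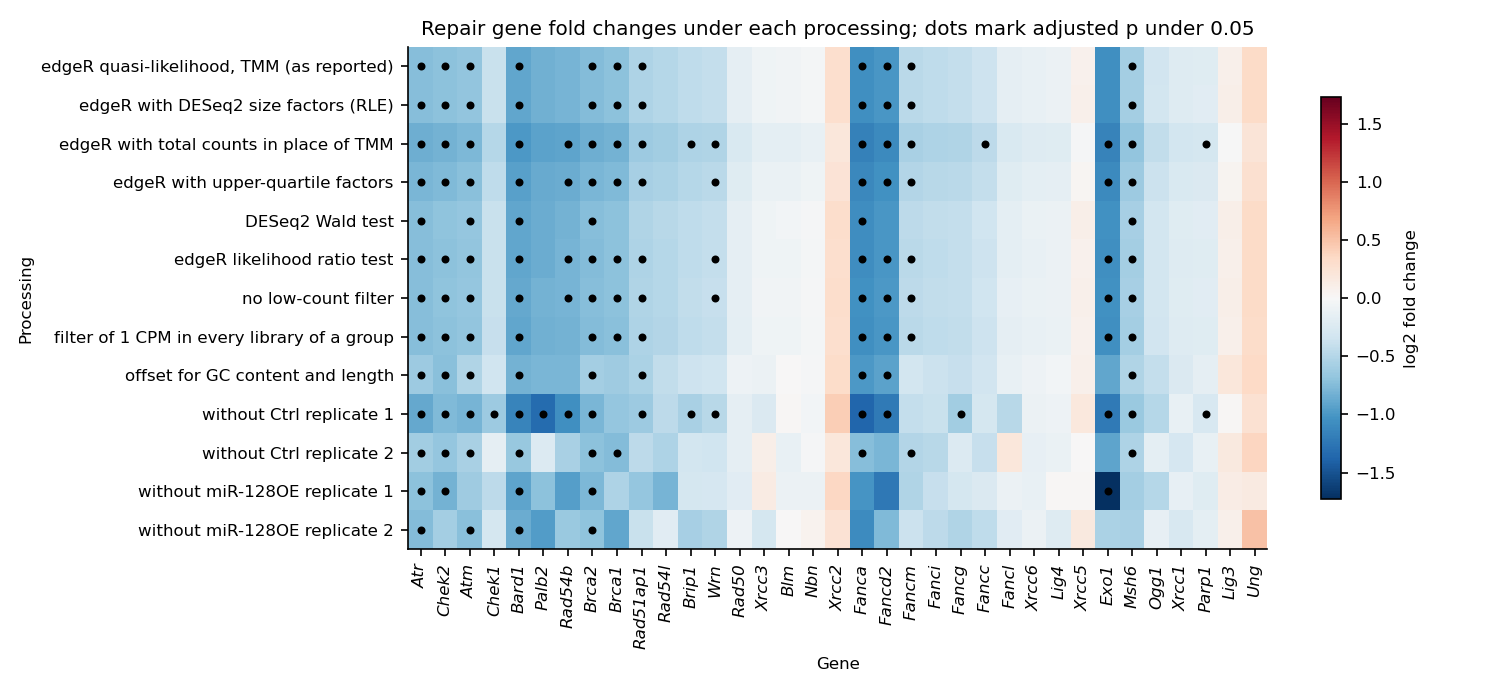
Log2 fold change of the 35 repair genes (columns, by pathway) in the reported fit (top) and under 12 alternatives (other rows), blue for lower and red for higher in miR-128OE hearts, with a black dot where the adjusted p was under 0.05. Dots fill the columns of *Atr*, *Bard1* and *Brca2*, and no red square carries one.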

How the data were processed

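RNA-seq of total RNA from P7 hearts was analyzed in 2 Ctrl and 2 miR-128OE libraries. The authors deposited raw counts per gene, made from reads aligned to mm10 with TopHat. Tools named in the submitters' processing notes are bcl2fastq, TopHat and edgeR. Gene models, strand handling and how reads matching more than 1 gene were treated are not given in the sources used here. Entrez identifiers were paired with symbols through RefSeq GRCm38.p6 (24381 of 24454 matched).

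Counts were fitted with edgeR 4.0.16 in R 4.3.3 (filterByExpr, TMM factors, quasi-likelihood test, Benjamini-Hochberg adjustment over 14266 genes, threshold 0.05). Each SE was obtained from the log2 fold change and the F statistic. The 95% intervals came from the same fit. Library totals were 12385863, 8096870, 12440553 and 14359838 counts. The floor was 3 counts, which covers counting error only. Replicates differed beyond sampling noise (chi-square per degree of freedom 12.2 and 5.75) and were counted separately. RPKM used the union of GENCODE M21 exons. Python 3.11.15 with pandas 2.3.3 was used for summaries.

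The members and lists were chosen with earlier results of these data known. All 35 members are named, with values in every library for those past the threshold and for a set of pathway leaders. Other genes named are the 2 with the smallest p-value in each list of further repair genes, p53 targets and proliferation genes, with *Mki67*, the *miR-128* precursors, *Xist* and *Ddx3y*. Some further values by library, such as those of *Palb2*, *Exo1* and *Xrcc2*, were chosen after they were seen. Alternatives were other size factors, tests (DESeq2 1.42.0 and the likelihood ratio test), filters, a GC and length offset (loess, span 0.5), and each library left out. Hearts at P1 and P28 were not analysed here.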

Additional observations from a re-analysis of the deposited data

How the results depend on the processing

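Scaled by total counts, all genes together had a median of −0.11 on the log2 scale, and there were 1612 higher and 2945 lower genes, against 2347 and 2143. Under that scaling 17 repair genes were lower, 1 other repair gene higher and 5 p53 targets higher, and the log2 fold changes of *Lig3* and *Xrcc5* changed sign to −0.0061 and −0.021. Upper-quartile factors gave 1980 higher and 2499 lower genes. DESeq2 called 1320 genes lower, with 6 repair genes lower, 19 other repair genes lower and 1 higher, and 0 p53 targets lower. With the GC and length offset *Blm* stood at 0.0017.

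Leaving out each library in turn gave 667 to 2384 lower and 897 to 2654 higher genes, 4 to 17 lower repair genes, 13 to 43 lower and 1 to 5 higher other repair genes, 0 to 2 lower and 5 to 9 higher p53 targets, and 8 to 28 lower and 0 to 1 higher proliferation genes. The sign of 5 repair genes that did not pass changed, over ranges of −0.13 to 0.026 for *Blm*, −0.49 to 0.19 for *Fancl*, −0.22 to 0.018 for *Lig4*, −0.096 to 0.058 for *Nbn* and −0.30 to 0.14 for *Xrcc3*.

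An E2F element with 1 more required base was held by 3 of the 28 repair genes with a window (10.7%), against 3.03% of tested genes. By call, 2 of 10 lower genes and 1 of 18 others held it. Over longest transcripts the median RPKM was 3.38 in Ctrl and 2.42 in miR-128OE hearts. The cause of these changes was not tested. No paired analysis was possible because the labels give no replicate numbers. Genes with under 100 normalized counts, such as *Palb2*, *Exo1* and *Brca1*, are limited by depth, most of all in WH8.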
